A study of Mus musculus with 4 samples.

Results

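The genes described are the aminoacyl-tRNA synthetases, 36 genes chosen by their symbols among the 18598 genes of an RNA-seq table of mouse bone marrow cells. They comprise 20 genes for cytosolic enzymes and 16 genes for mitochondrial enzymes, whose symbols end in 2. All 36 were listed, and all 36 were among the 14858 genes whose mean over the libraries reached 10 normalized counts and which were therefore tested.

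The study asked what the chromatin remodelling factor BPTF does in blood stem and progenitor cells, and RNA was sequenced from lineage-negative, Sca1-positive, c-Kit-positive (LSK) cells sorted from bone marrow. Control animals were littermates that the study's text names *Bptf* f/f, with *Bptf* alleles that cre can delete and no cre. *Bptf* cKO animals were *Bptf* f/f;Mx1-cre. Each genotype had 2 libraries, each from the pooled cells of 5 C57BL/6 mice about 3 months old. Animals of both genotypes had received pIpC, which activates the interferon-inducible *Mx1* promoter, and cells were taken 10 days after cre induction. Because only the *Bptf* cKO animals carried cre, the effect of cre itself and that of the deletion cannot be told apart in these libraries.

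Aminoacyl-tRNA synthetases join each amino acid to its matching tRNA, which the ribosome then uses to read the code. Most amino acids have separate nuclear genes for the cytosolic and the mitochondrial enzyme, while *Gars* and *Kars*, for glycine and lysine, each make both forms. In the cytosol, 8 of the enzymes sit together in the multisynthetase complex, and the others act outside it. The transcription of many cytosolic synthetase genes is known to be raised when cells respond to a shortage of amino acids, through C/EBP-ATF response elements.

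Windows from the start regions of 5 cytosolic genes are shown here because they hold this element. RefSeq promoters (build GRCm38.p6) run from 250 bases before to 50 bases after a gene's start, and 27 of the 36 members matched an entry. The element TGATGNAA, searched on both strands, was found in 5 of the 13 cytosolic members matched (*Aars*, *Gars*, *Iars*, *Tars* and *Yars*) and in 0 of the 14 mitochondrial ones. Of all 32851 promoters of that length, 3.97% held it. Counted by gene, as the members are, 4.51% of 27025 genes held it in at least 1 promoter. Capitals mark the matched letters in the windows below, which read 5′ to 3′ on the gene's own strand, and positions count the first matched base from the RefSeq start as base 1.
*Aars*, position 10, chr8:111033840-111033869, plus strand: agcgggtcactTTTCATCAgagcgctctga
*Gars*, position -30, chr6:55037960-55037989, plus strand: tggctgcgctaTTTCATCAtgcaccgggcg
*Iars*, position 8, chr13:49682126-49682155, plus strand: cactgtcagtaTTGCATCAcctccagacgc
*Tars*, position -15, chr15:11399655-11399684, minus strand: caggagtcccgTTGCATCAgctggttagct
*Yars*, position 4, chr4:129189895-129189924, plus strand: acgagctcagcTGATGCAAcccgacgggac
The matches in *Aars*, *Gars*, *Iars* and *Tars* are the element's reverse complement, and that in *Yars* is the element as written.

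The E-box CACGTG was found in 4 of the 13 cytosolic members (*Aars*, *Farsb*, *Iars* and *Tars*) and in 1 of the 14 mitochondrial ones (*Ears2*). It was in 7.15% of all promoters and, counted by gene, in 8.09% of genes. No match of the one motif overlapped a match of the other in these members. *Cars*, *Hars*, *Lars*, *Nars*, *Rars*, *Vars*, *Wars*, *Hars2* and *Pars2* had no promoter entry matched. A match of letters is a description of the window and not a measured binding site.

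Whole reads recovered from the deposited values numbered 14091054 to 30134742 per library, and every member had at least 160 reads in every library. *Kit*, the receptor used in the sort, was at 13634 to 17051 normalized counts, and *Ly6a*, which encodes Sca1, was at 726 to 1743. The libraries numbered 2 stood apart from those numbered 1 in both genotypes: *Xist*, transcribed from the inactive X chromosome of female cells, was at 0.775 and 15675 normalized counts in *Bptf* f/f replicates 1 and 2 and at 3.25 and 11843 in *Bptf* cKO replicates 1 and 2. The summed level of 5 pluripotency genes was 0.775 and 843 in *Bptf* f/f and 0 and 1065 in *Bptf* cKO, in the same order. The sum of 5 erythroid genes moved with genotype, at 672 and 804 normalized counts in *Bptf* f/f and 134 and 271 in *Bptf* cKO, with 0 of the 5 called and none of the 5 at 0 in any library. The sum of 5 LSK genes (*Kit*, *Ly6a*, *Flt3*, *Mecom* and *Hlf*) was 35543 and 32541 in *Bptf* f/f against 27581 and 28447 in *Bptf* cKO. Among these 5, 0 were called, and only *Hlf* did not overlap between the genotypes (6952 and 8795 against 5022 and 6394). The log2 fold changes of *Kit* and *Ly6a* were -0.010 and 0.091. Sums of granulocyte, monocyte, B cell and plasma cell genes overlapped between the genotypes. Of the 3 plasma cell genes *Sdc1* was lower in *Bptf* cKO (384 and 363 against 52.0 and 59.3; limma adjusted p = 0.0204), and *Jchain* and *Mzb1* were not called. The part of these differences in the results below was not tested, except that the cytosolic and the mitochondrial median are also given without the libraries numbered 2.

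*Bptf* (chr11:107033081-107132127, minus strand, GRCm38) checks the labels. It was at 5520 and 5850 normalized counts in the *Bptf* f/f libraries and at 3398 and 3320 in the *Bptf* cKO libraries, which did not overlap. The log2 fold change was -0.76 (SE 0.090, limma adjusted p = 0.0439). The values cover the whole gene and not the deleted exon alone.

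In *Bptf* cKO LSK cells 5 of the 20 cytosolic synthetase genes rose in the limma fit with genotype alone, and none of the 16 mitochondrial ones passed that test in either direction. Of the 20 cytosolic genes, 5 rose (*Aars*, *Lars*, *Nars*, *Sars* and *Yars*) and 0 fell at an adjusted p under 0.05 in limma, against 0.37% of all tested genes called higher and 0.37% called lower (55 each). Both *Bptf* cKO libraries were above both *Bptf* f/f libraries for 17 of the 20, against 23.2% of all tested genes, and below both for 0, against 23.8%. The median log2 fold change was 0.92, which is 1.89-fold, beside 0.0010 over all tested genes. Summed over the 20 genes, the normalized counts were 63833 and 75586 in *Bptf* f/f and 106680 and 117775 in *Bptf* cKO. These sums were 0.331% and 0.387% of all listed counts in *Bptf* f/f and 0.545% and 0.592% in *Bptf* cKO, with no overlap of the genotypes. In bulk libraries a change in the make-up of the sorted cells and a change in RNA per cell cannot be told apart.

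Other tests and designs called 0 to 14 members higher, with 0 to 13 of them cytosolic and 0 or 1 mitochondrial. Where 14 were called, 6.03% or 6.00% of all tested genes were called higher, against 0.37% in limma with genotype alone. DESeq2 called 12 members and 2.11% of all tested genes higher, and limma without the trend 0 members and 0.013%. Leaving out any library leaves 1 in its genotype, which is then assumed to vary like the others, so such fits say little of the 5 calls. The cytosolic median log2 fold change was 1.01 without *Bptf* cKO replicate 1 and 0.83 without *Bptf* cKO replicate 2. It was 0.75 without *Bptf* f/f replicate 1 and 1.06 without *Bptf* f/f replicate 2. With 2 libraries against 2, the smallest p that exact permutation allows for a gene is 0.333, so the calls come from the limma fit, which pools the spread over all genes. The libraries are separate pools of mice, and their spread says nothing of single animals.

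**Figure D1:**
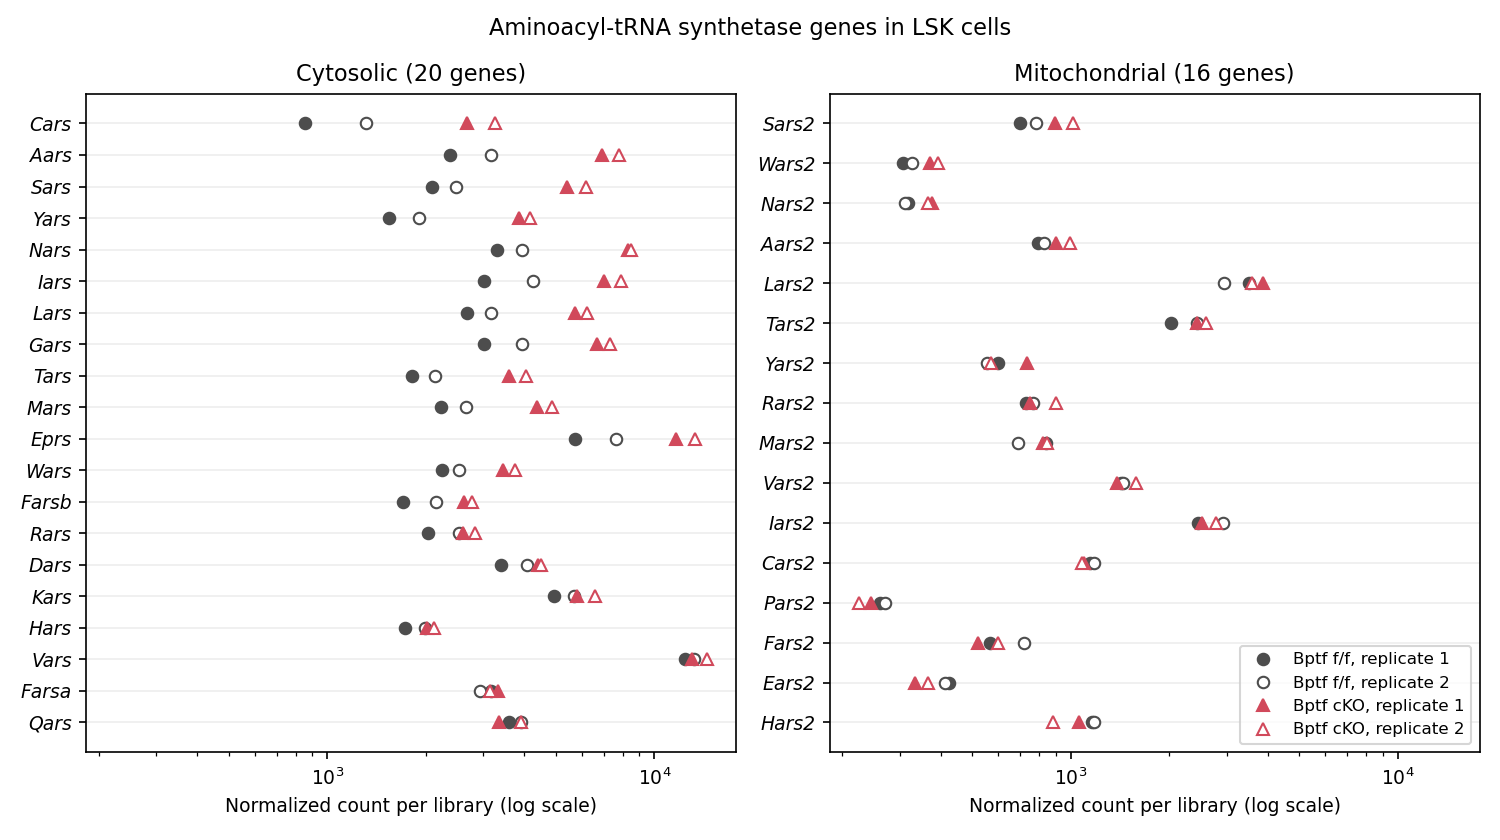
Normalized count of each of the 36 synthetase genes (log axis) in the 2 *Bptf* f/f libraries (circles) and the 2 *Bptf* cKO libraries (triangles), filled for replicate 1 and open for replicate 2, with genes ordered by log2 fold change. The *Bptf* cKO points lie to the right of the *Bptf* f/f points for 17 of the 20 cytosolic genes and for 6 of the 16 mitochondrial genes.

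*Aars*, the alanyl enzyme (chr8:111033144-111057664, plus strand), was at 2366 and 3167 normalized counts in *Bptf* f/f replicates 1 and 2 and at 6909 and 7812 in *Bptf* cKO replicates 1 and 2. The lower *Bptf* cKO library was well above the higher *Bptf* f/f library. The means were 2766 ± 567 and 7361 ± 639 (SD, n = 2 each), and the log2 fold change was 1.42 (SE 0.16, limma adjusted p = 0.0419) with a 95% interval of 1.01 to 1.84. Of its exon bases, 14.3% also belong to *Exosc6* on the same strand, so reads from those bases cannot be assigned to *Aars* alone.

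*Sars*, the seryl enzyme, also charges the tRNA for selenocysteine (chr3:108424865-108445209, minus strand). Its normalized counts were 2090 and 2481 in *Bptf* f/f and 5409 and 6160 in *Bptf* cKO. The genotypes did not overlap, and each pair of libraries stayed close together. From 2286 ± 276 to 5784 ± 531 (SD, n = 2 each), the log2 fold change was 1.34 (SE 0.13, limma adjusted p = 0.0278; 95% interval 1.02 to 1.67).

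*Nars*, the asparaginyl enzyme (chr18:64499647-64516652, minus strand), had the lowest adjusted p of the family. It was at 3302 and 3929 normalized counts in *Bptf* f/f and at 8292 and 8492 in *Bptf* cKO. The *Bptf* cKO libraries lay closer to each other than the *Bptf* f/f libraries did. The means of 3616 ± 443 and 8392 ± 141 (SD, n = 2 each) gave a log2 fold change of 1.22 (SE 0.12, limma adjusted p = 0.0267; 95% interval 0.93 to 1.51).

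*Yars*, the tyrosyl enzyme (chr4:129189760-129219607, plus strand), was at 1545 and 1908 normalized counts in *Bptf* f/f and at 3851 and 4158 in *Bptf* cKO. Again no library of one genotype reached the other. The log2 fold change was 1.22 (SE 0.13, limma adjusted p = 0.0368; 95% interval 0.88 to 1.56). *Yars* starts 33 bases from *S100pbp* on the opposite strand, which had values of 1572 and 1405 in *Bptf* f/f and 1074 and 887 in *Bptf* cKO (log2 fold change -0.61, limma adjusted p = 0.143).

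*Lars*, the leucyl enzyme and the called member of the multisynthetase complex (chr18:42202298-42262194, minus strand), was at 2681 and 3167 normalized counts in *Bptf* f/f and at 5719 and 6235 in *Bptf* cKO. Both *Bptf* cKO libraries exceeded both *Bptf* f/f libraries. The log2 fold change was 1.03 (SE 0.12, limma adjusted p = 0.0419; 95% interval 0.73 to 1.34).

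A further 8 cytosolic genes had an unadjusted p under 0.05, as had 2340 of the 14858 genes tested, without passing the adjustment. For each of the 8 both *Bptf* cKO libraries were above both *Bptf* f/f libraries, against 23.2% of all tested genes. Genes picked by p in the same libraries seldom overlap, so this adds nothing to the p. *Cars*, the cysteinyl enzyme, had the largest log2 fold change of the family. It was at 852 and 1311 normalized counts in *Bptf* f/f and at 2681 and 3266 in *Bptf* cKO, a log2 fold change of 1.48. The gap between its *Bptf* f/f libraries was wide, and its SE of 0.23 was the largest among the cytosolic genes (limma adjusted p = 0.0700). Ordered by log2 fold change, the others were *Iars* (isoleucyl) at 1.06, *Gars* at 1.02, *Tars* (threonyl) at 0.95, *Mars* (methionyl) at 0.92, *Eprs*, which joins the glutamyl and prolyl enzymes in one protein, at 0.92, *Wars* (tryptophanyl) at 0.60 and *Farsb*, the beta subunit of the phenylalanyl enzyme, at 0.49. Their limma adjusted p ran from 0.0547 for *Tars* to 0.204 for *Farsb*. *Mars* shares 68 exon bases, 1.99% of its exons, with *Ddit3* on the opposite strand. *Ddit3*, a stress-induced transcription factor, was itself higher in *Bptf* cKO (357 and 412 against 903 and 1092 normalized counts; limma adjusted p = 0.0429), and the strand setting of the counting was not given in the sources used here.

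The remaining 7 cytosolic genes had log2 fold changes between -0.050 and 0.26, a division made after the values were seen. *Dars* (aspartyl) and *Rars* (arginyl) were each at 0.26, *Kars* was at 0.22, *Hars* (histidyl) at 0.16, *Vars* (valyl) at 0.099 and *Farsa*, the alpha subunit of the phenylalanyl enzyme, at 0.090. *Qars*, the glutaminyl enzyme, was the lowest, at 3582 and 3921 normalized counts in *Bptf* f/f and 3339 and 3922 in *Bptf* cKO. Its genotypes overlapped, as did those of *Vars* and *Farsa*. Its log2 fold change of -0.050 (95% interval -0.35 to 0.25) became 0.0012 when libraries were recentred on their medians, so it had no settled sign. Of the *Farsa* and *Farsb* subunits of one enzyme, the 95% interval for *Farsa* (-0.15 to 0.33) included 0 and that for *Farsb* (0.14 to 0.85) did not, and the difference between the subunits was not tested.

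*Gars* and *Kars*, the genes that serve both compartments, are given by library. *Gars* was at 3024 and 3942 normalized counts in *Bptf* f/f and at 6658 and 7338 in *Bptf* cKO (log2 fold change 1.02, SE 0.15, limma adjusted p = 0.0660). *Kars* was at 4934 and 5695 in *Bptf* f/f and at 5780 and 6586 in *Bptf* cKO (log2 fold change 0.22, SE 0.12, limma adjusted p = 0.462). For *Gars* the genotypes stood far apart, while for *Kars* the higher *Bptf* f/f library nearly reached the lower *Bptf* cKO library. Without both genes the median of the other 18 cytosolic genes was also 0.92, with the 5 calls among them.

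**Figure D2:**
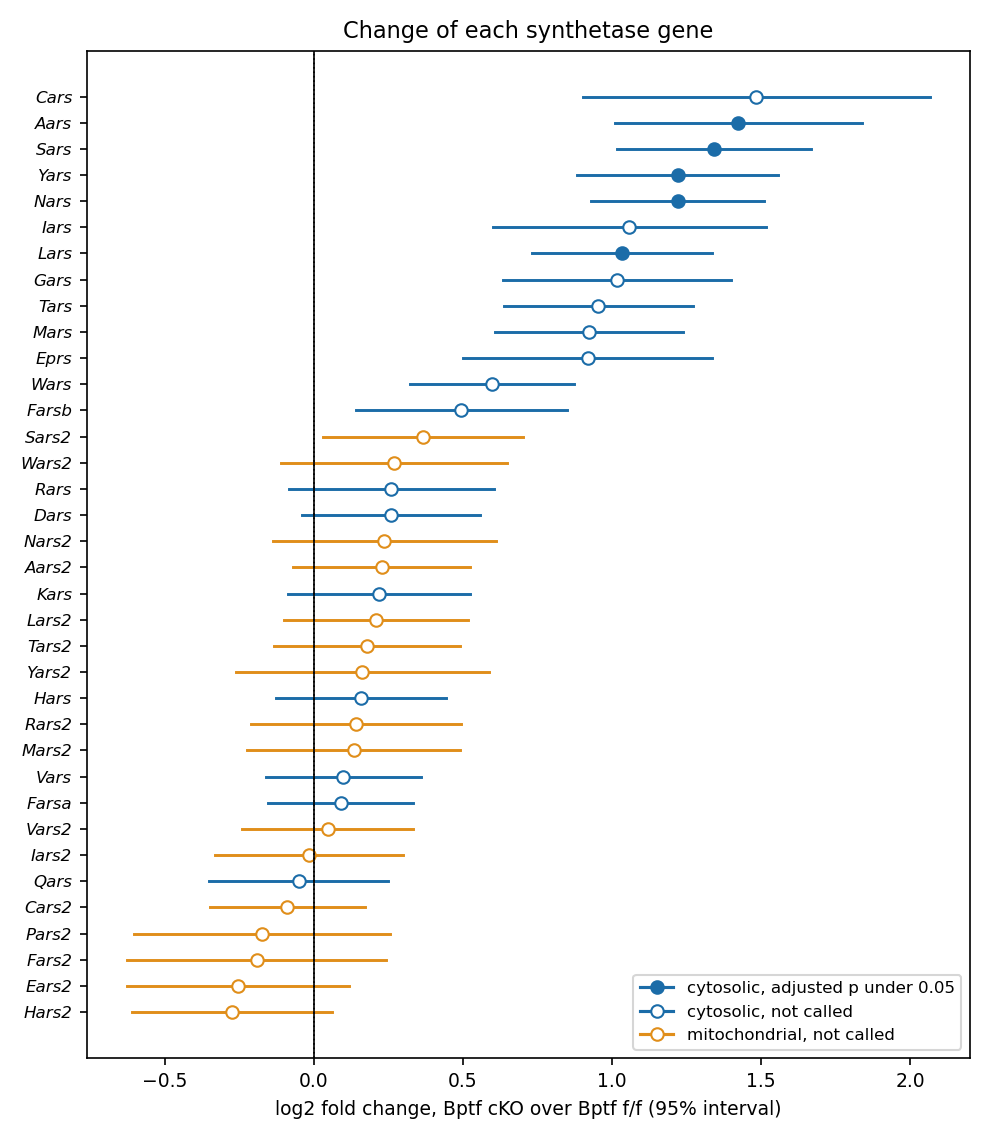
Log2 fold change of *Bptf* cKO over *Bptf* f/f for each of the 36 genes with its 95% interval from limma, blue for cytosolic and orange for mitochondrial genes, filled where the adjusted p was under 0.05. The 5 filled points lie between 1.03 and 1.42, and the mitochondrial genes lie between -0.28 and 0.37.

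Members of the multisynthetase complex, which holds the *Dars*, *Eprs*, *Iars*, *Kars*, *Lars*, *Mars*, *Qars* and *Rars* products, were mixed. Of the 8 genes 1 was called higher, against 0.37% of all tested genes, and the median log2 fold change was 0.59. Both *Bptf* cKO libraries were above both *Bptf* f/f libraries for 7, against 23.2% of all tested genes. *Eprs*, *Iars*, *Lars* and *Mars* lay between 0.92 and 1.06, while *Dars*, *Kars*, *Qars* and *Rars* lay between -0.050 and 0.26. The 12 cytosolic enzymes outside the complex had 4 calls, 10 with non-overlapping genotypes and a median of 0.99, from 0.090 for *Farsa* to 1.48 for *Cars*. The difference between these groups was not tested. The proteins that hold the complex together, encoded by *Aimp1*, *Aimp2* and *Eef1e1*, had log2 fold changes of 0.21, 0.26 and 0.12, and 0 of the 3 were called or had an unadjusted p under 0.05 in limma.

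Synthetases also fall into structural classes, class I with a Rossmann fold and class II built around an antiparallel sheet. Among cytosolic genes, the 9 of class I had 2 calls and a median log2 fold change of 0.92. The 10 of class II had 3 calls and a median of 0.72. All these calls were higher, as were 0.37% of all tested genes. *Eprs*, which holds an enzyme of each class, was counted in neither. Among mitochondrial genes the medians were 0.13 for the 9 of class I and 0.18 for the 7 of class II, with 0 calls in both. In both classes the cytosolic genes ran from near 0 to above 1, from *Qars* (-0.050) to *Cars* (1.48) in class I and from *Farsa* (0.090) to *Aars* (1.42) in class II.

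**Figure D3:**
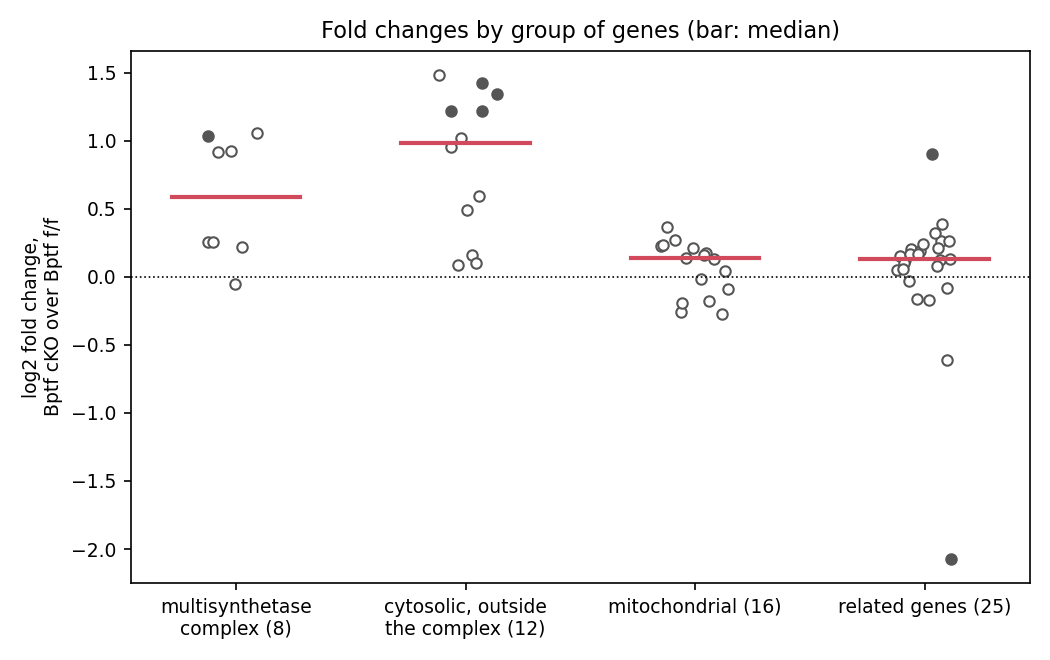
Log2 fold change of *Bptf* cKO over *Bptf* f/f for members of the multisynthetase complex (8 genes), cytosolic enzymes outside it (12), mitochondrial enzymes (16) and related genes of tRNA charging (25). Each point is a gene, filled where the limma adjusted p was under 0.05, and bars are medians of 0.59, 0.99, 0.14 and 0.13.

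The mitochondrial synthetase genes moved little and in both directions. Of the 16 genes, 0 were called in either direction in limma, and 0 also in edgeR and in DESeq2 on recovered reads with genotype alone. Other designs called 0 or 1 of them higher, the 1 being *Sars2*. An unadjusted p under 0.05 was found for 1 of the 16, against 2340 of all 14858 genes. Log2 fold changes were positive for 10 and negative for 6, with a median of 0.14 and a range from -0.28 to 0.37. Both *Bptf* cKO libraries were above both *Bptf* f/f libraries for 6 (*Aars2*, *Lars2*, *Nars2*, *Sars2*, *Tars2* and *Wars2*) and below for 4 (*Cars2*, *Ears2*, *Hars2* and *Pars2*), beside 23.2% and 23.8% of all tested genes. The summed normalized counts were 17276 and 17780 in *Bptf* f/f and 18340 and 18792 in *Bptf* cKO. The SE of single genes ran up to 0.17, so the intervals of these genes reached from -0.63 to 0.70.

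*Sars2*, the mitochondrial seryl enzyme, had the largest log2 fold change of the 16. It was at 701 and 783 normalized counts in *Bptf* f/f and at 896 and 1020 in *Bptf* cKO, a log2 fold change of 0.37 (SE 0.13, limma adjusted p = 0.283, unadjusted p = 0.0373). *Hars2*, the mitochondrial histidyl enzyme, had the lowest, at 1163 and 1181 in *Bptf* f/f and 1063 and 882 in *Bptf* cKO, a log2 fold change of -0.28 (SE 0.13, limma adjusted p = 0.404). *Sars2* was thus higher and *Hars2* lower in both *Bptf* cKO libraries, and neither passed the adjustment in limma with genotype alone. *Hars* and *Hars2* start 197 bases apart on opposite strands of chromosome 18 and share 195 exon bases. *Iars2* shares 22.9% of its exon bases with *Rab3gap2* on the opposite strand, and the log2 fold changes of this pair were -0.017 and 0.076.

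The mitochondrial counterparts of the called genes are given by library. *Aars2* was at 796 and 827 normalized counts in *Bptf* f/f and at 905 and 998 in *Bptf* cKO (log2 fold change 0.23, limma adjusted p = 0.439). *Nars2* was at 319 and 311 against 376 and 365 (0.24, limma adjusted p = 0.516). For both, the *Bptf* cKO libraries were above the *Bptf* f/f libraries by a margin much smaller than that of *Aars* and *Nars*. *Lars2* was at 3522 and 2949 against 3876 and 3584 (0.21, limma adjusted p = 0.482). *Yars2* was at 602 and 556 against 734 and 570 (0.16, limma adjusted p = 0.713). The genotypes overlapped for *Yars2* and lay close to each other for *Lars2*.

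Pairing each cytosolic gene with the mitochondrial gene for the same amino acid gave 17 pairs. The cytosolic log2 fold change was the larger in 17 of 17, by a median of 0.83 and by 0.052 (*Vars* and *Vars2*) to 1.57 (*Cars* and *Cars2*). The pairs hold 16 cytosolic and 16 mitochondrial genes, *Eprs* and *Fars2* each entering more than once. Within a library, the ratio of the cytosolic to the mitochondrial gene had both of its *Bptf* cKO values above both of its *Bptf* f/f values for 15 pairs, lower for 0 and overlapping for 2 (*Farsa* with *Fars2*, and *Rars* with *Rars2*). *Vars* with *Vars2* counts among the 15 by a small margin, at a log2 ratio of 3.188 in *Bptf* f/f replicate 2 and 3.191 in *Bptf* cKO replicate 2. The share among other pairs of genes was not computed. A ratio within a library does not depend on how libraries were scaled to each other.

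On the log2 scale of counts per kilobase of exon, *Cars* over *Cars2* was at -0.29 and 0.29 in *Bptf* f/f and at 1.42 and 1.72 in *Bptf* cKO. *Aars* over *Aars2* went from 0.61 and 0.97 to 1.97 and 2.01, and *Sars* over *Sars2* from 0.94 and 1.03 to 1.96 and 1.96. *Tars* over *Tars2* went from 0.074 and 0.047 to 0.80 and 0.88. In these pairs the *Bptf* cKO libraries lay close to each other and clear of the *Bptf* f/f libraries. *Vars* over *Vars2* was at 3.09 and 3.15 in *Bptf* f/f and at 3.19 and 3.15 in *Bptf* cKO, almost the same in every library. The difference within a pair was not tested by permutation, which cannot go below a p of 0.333 here.

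**Figure D4:**
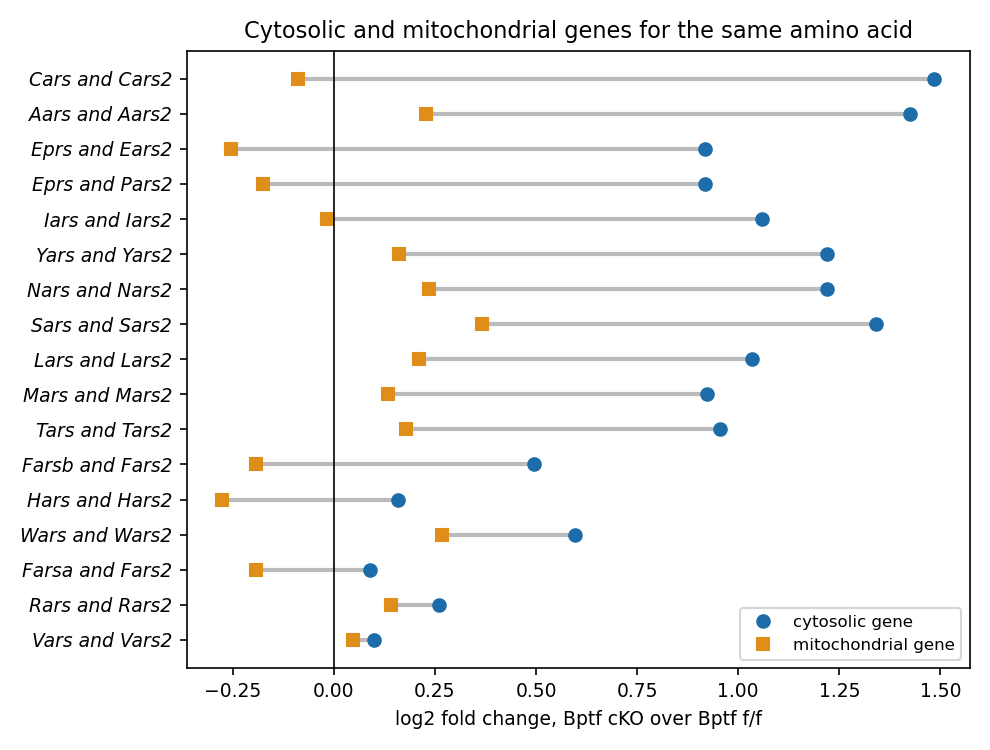
Log2 fold change of *Bptf* cKO over *Bptf* f/f for the cytosolic (circle) and the mitochondrial (square) gene of each of 17 pairs for the same amino acid, ordered by the gap between them. The circle lies to the right of the square in 17 of 17 pairs, by 1.57 for *Cars* and *Cars2* at the top and by 0.052 for *Vars* and *Vars2* at the bottom.

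Levels between genes were compared per kilobase of exon. In *Bptf* f/f LSK cells the 20 cytosolic genes ran from 164 (*Cars*) to 2286 (*Vars*) normalized counts per kilobase, with a median of 690. The 16 mitochondrial genes ran from 45.1 (*Nars2*) to 321 (*Tars2*), with a median of 177. In *Bptf* cKO cells the medians were 1025 and 203. The highest and lowest cytosolic genes were 13.9-fold apart in *Bptf* f/f and 5.43-fold apart in *Bptf* cKO, while for mitochondrial genes the spread was 7.12-fold and 6.81-fold. Across the 20 cytosolic genes the log2 fold change and the *Bptf* f/f level per kilobase had a Spearman correlation of -0.55, and across the 16 mitochondrial genes -0.062. These correlations are descriptions across genes of the same 4 libraries, and the *Bptf* f/f values enter both measures.

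The 5 cytosolic genes whose printed windows hold the element TGATGNAA had log2 fold changes of 0.95 to 1.42, with a median of 1.06 and 2 calls (*Aars* and *Yars*). The 8 matched cytosolic genes without it in the window ran from -0.050 to 1.34, with a median of 0.38 and 1 call (*Sars*). Among all tested genes, 0.37% were called higher. Of the genes called, *Lars* and *Nars* had no matched promoter. These are values of genes chosen with their changes known, and were not tested.

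The libraries numbered 2 were higher than those numbered 1 for most cytosolic genes in both genotypes. *Bptf* f/f replicate 2 was above replicate 1 for 19 of 20, by a median of 0.25 on the log2 scale, and *Bptf* cKO replicate 2 was above replicate 1 for 19 of 20, by a median of 0.15. Over all tested genes the counts were 7474 and 7323 of 14858. With the libraries numbered 2 left out, the single *Bptf* cKO library exceeded the single *Bptf* f/f library by a median of 0.98 over the cytosolic genes and 0.045 over the mitochondrial ones, a comparison without replicates. In the libraries numbered 2 alone these medians were 0.84 and 0.11.

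Of 25 related genes of tRNA charging, 1 rose and 1 fell in limma, beside 0.37% of all tested genes in each direction. Their median log2 fold change was 0.13. *Xpot*, which exports tRNA from the nucleus, was at 3359 and 3623 normalized counts in *Bptf* f/f and at 6478 and 6602 in *Bptf* cKO, a log2 fold change of 0.91 (SE 0.092, limma adjusted p = 0.0316). *Dtd1*, which removes D-amino acids from mischarged tRNA, was at 861 and 1008 in *Bptf* f/f and at 204 and 238 in *Bptf* cKO, a log2 fold change of -2.07 (SE 0.16, limma adjusted p = 0.0206). For both genes the libraries of a genotype were close together and the genotypes far apart. The other 9 genes of tRNA end processing, splicing and export and the other 3 proofreading genes were not called. *Tarsl2*, a second threonyl-type gene, was at 705 and 733 against 525 and 420 (log2 fold change -0.61, limma adjusted p = 0.176). None of *Qrsl1*, *Gatb*, *Gatc* and *Mtfmt*, which complete glutaminyl- and formylmethionyl-tRNA in mitochondria, was called, and their median was 0.14 with 0 at an unadjusted p under 0.05. *Eef1a1* and *Tufm*, which carry charged tRNA to the cytosolic and the mitochondrial ribosome, had log2 fold changes of 0.099 and 0.058.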

How the data were processed

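RNA-seq of sorted LSK cells was available for 2 *Bptf* f/f and 2 *Bptf* cKO libraries, grouped by their labels. The authors deposited a per-library signal, the counts of each gene scaled by that library's size factor. The submitters' processing notes name HISAT2, featureCounts and DESeq2 with the build GRCm38 (mm10). Every value came out as a whole number of reads within 0.01, and the rarest listed gene had 11 reads summed over the 4 libraries. The authors also deposited the mean over libraries and their own log2 fold change, its standard error, a test statistic, a p-value and an adjusted p-value, which were not used. Per-library columns left unused numbered 0.

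Genes with a mean of at least 10 were compared as log2(normalized count + 1) with limma 3.58.1 (R 4.3.3; mean-variance trend, genotype only, two-sided, Benjamini-Hochberg over the 14858 genes), and fold changes are on that scale. A call is an adjusted p under 0.05. The limma code was tested on simulated data. Alternatives were edgeR 4.0.16 and DESeq2 1.42.0 on recovered reads, other pseudocounts, filters and scalings, no trend, a replicate block, and leaving out each library. The members and lists were chosen with earlier results of these data known. The fixed rule gave library values for called members, their mitochondrial partners, the extremes of each group, *Gars* and *Kars*, and among related genes named those called and the 3 of largest change. Exons and coordinates came from GENCODE vM21 (GRCm38) and promoters from RefSeq (GRCm38.p6). Members had at least 160 reads per library, and the number of libraries limits the precision. One promoter window is not reported here.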

Additional observations from a re-analysis of the deposited data

How the results depend on the processing

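The members called higher, 5 in limma and all cytosolic, numbered 3 in edgeR (*Nars*, *Sars* and *Yars*), 12 in DESeq2 and 0 in limma without the trend, where 12 members had an unadjusted p under 0.05 and the whole table had 2 calls. Leaving out each library in turn gave 0 to 8, and members called lower numbered 0 in every setting tried. Pseudocounts of 0.5 and 10, a mean of at least 50, recentring and quantile normalization each called the same 5 genes, and no filter added *Tars*. The cytosolic median log2 fold change lay between 0.75 (without *Bptf* f/f replicate 1) and 1.06 (without *Bptf* f/f replicate 2). The mitochondrial median, 0.14, was 0.19 after recentring, 0.045 in the libraries numbered 1 alone, an alternative chosen after seeing the data, and 0.060 to 0.15 with each library left out. *Bptf* was at -0.76 in edgeR with an adjusted p of 0.0531, its other alternative giving 0.000154. After recentring *Qars* was at 0.0012 and *Iars2* at 0.034, with the opposite sign. With each library left out, *Qars* ranged from -0.17 to 0.066, also passing 0.015, *Iars2* from -0.14 to 0.11, also passing 0.049, *Mars2* from -0.0063 to 0.27, *Vars2* from -0.049 to 0.14 and *Yars2* from -0.020 to 0.34. The cause was not tested. Whole-table calls, 55 higher and 55 lower, were 314 and 491 in DESeq2, 49 and 45 in edgeR, 47 and 17 without *Bptf* f/f replicate 2, and 1 and 0 without either *Bptf* cKO library.

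With a replicate block, limma and edgeR each called 14 members higher, 13 of them cytosolic and 1 mitochondrial (*Sars2*), and the whole table had 896 higher and 1242 lower in limma. Labels give no shared origin for equal numbers, so the block was not used for the report. Deviations of equally numbered libraries from their genotype mean had a correlation of 0.45 across the 14858 genes. This correlation was 0.64 when only genes averaging 100 normalized counts or more were kept, and every synthetase gene is among those. Whether equal numbers mark a shared origin was not tested.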
